A study of Mus musculus with 96 samples.

Results

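Mitochondrial biogenesis regulators are the genes whose products raise or run the expression of the mitochondrial proteome and of the mitochondrial genome (mtDNA). The 10 members were taken by name: the coactivator genes Ppargc1a, Ppargc1b and Pprc1, the transcription factor genes Esrra, Nrf1 and Gabpa, the mtDNA factor genes Tfam, Tfb2m and Polrmt, and the muscle coregulator gene Perm1. All 10 were found among the 54146 mouse genes measured. Their RNA was followed across 96 samples of C2C12 cells, a mouse muscle precursor line, in 35 conditions that combined a cell state, a mitochondrial inhibitor or oxygen level and a transgene.

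Dividing myoblasts grew in 10% fetal bovine serum and carried a lentiviral transgene behind a doxycycline-inducible promoter, and every one of these cultures, controls included, received doxycycline at 300 ng/ml. The control transgene was luciferase (Luc). LbNOX is a bacterial water-forming NADH oxidase that acts in the cytosol, mitoLbNOX is the same enzyme sent to mitochondria, and NDI1 is a yeast NADH dehydrogenase that can stand in for the electron entry of complex I. Post-mitotic cells had spent 1 day, and myotubes 4 days, in 2% horse serum; both were untransduced and received no doxycycline. A second set of myotubes received adenovirus for GFP alone or for GFP with LbNOX 48 hr after the change of serum. Treatments lasted 10 hr: vehicle (DMSO), the complex I inhibitor piericidin (0.5 µM), the complex III inhibitor antimycin (0.5 µM), the ATP synthase inhibitor oligomycin (1 µM), the uncoupler BAM15 (0.5 µM), and pairs with oligomycin. Myotubes in 5% oxygen were moved there the night before and stayed in it while treated with DMSO or oligomycin. Chloramphenicol (20 µg/ml), which blocks mitochondrial translation, was given for 48 hr beside its own 48 hr DMSO cultures. Conditions held 3 samples each, except 2 for each NDI1 group, each GFP group and each 48 hr group. No source states whether samples of a condition were separate cultures, so the p-values below measure the spread between these samples, which may be technical.

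The PGC-1 family of coactivators has no DNA-binding domain and works through transcription factors such as ERRα, nuclear respiratory factor 1 and GABP, which in turn bind genes of the respiratory chain and of mtDNA upkeep. PGC-1α is the inducible member in muscle, raised by exercise and cold, PGC-1β is its close relative, and PRC, the product of Pprc1, is the member that responds to serum and growth. TFAM packages mtDNA and starts its transcription together with TFB2M and the mitochondrial RNA polymerase.

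The libraries held 6458295 to 15366745 estimated counts, with a median of 10336588.5. The luciferase and NDI1 sequences had counts only in samples labelled with them, the LbNOX sequence in all LbNOX and mitoLbNOX samples and in no others, and GFP in the GFP and LbNOX myotubes only. Markers of dividing cells (Mki67, Top2a, Cdk1, Ccna2) summed to 1070 to 1090 CPM (counts scaled to library size) in Luc myoblasts under DMSO, 195 to 216 after 1 day in low serum and 114 to 139 in myotubes. Markers of differentiated myotubes (Myog, Ckm, Myh3, Acta1, Tnnt3, Mymk) summed to 17 to 21.1, 10800 to 11400 and 11000 to 11400 CPM in the same groups. Both sums set myoblasts apart as labelled, but the myotube markers did not separate day 1 cells from myotubes. Between those states 1 of the 6 was called higher in myotubes, 1 lower, and 4 were not called. Below, a level is in CPM scaled with TMM factors, a change is a log2 fold change ± its standard error (SE) from edgeR's quasi-likelihood test, and a gene was called when its p-value, adjusted by Benjamini-Hochberg over all genes tested, was under 0.05. As one check on each call, all samples with 1 replicate number were left out in turn. Counts were summed over isoforms, so that the transcripts from the several promoters of Ppargc1a were not told apart.

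Detection differed widely among the members. Pprc1, Nrf1, Gabpa, Tfam, Tfb2m and Polrmt had at least 16 counts in every sample of all 35 conditions. Ppargc1b reached that in 31 conditions and Esrra in 28, with 9 to 121 and 12 to 60 counts per sample. Ppargc1a reached it in 12 of the myotube conditions, in 1 condition at day 1 and in none of the myoblast conditions. Its counts ran from 0 to 80. Perm1 reached it in none, with 0 to 17 counts per sample and 9 samples at 0. So 8 members were tested in myoblasts and 9 in the other cells.

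The promoters of the 3 mtDNA factor genes are shown because these genes moved together in myotubes given oligomycin. They are RefSeq sequences of build GRCm38.p6, each on the minus strand, from 250 bases before to 50 bases after the annotated start, at chr10:71237995-71238294 for Tfam, chr1:179546227-179546526 for Tfb2m and chr10:79746532-79746831 for Polrmt. Capitals mark matches, on either strand, to NRF1 (GCATGCGC) or ETS (CCGGAAG), the latter being the kind of site that GABP binds.
Tfam: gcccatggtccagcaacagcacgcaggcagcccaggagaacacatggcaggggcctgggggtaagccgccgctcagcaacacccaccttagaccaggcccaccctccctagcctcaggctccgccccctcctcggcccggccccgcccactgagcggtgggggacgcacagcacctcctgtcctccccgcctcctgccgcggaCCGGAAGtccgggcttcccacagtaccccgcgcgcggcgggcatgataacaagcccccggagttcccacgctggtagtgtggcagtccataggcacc
Tfb2m: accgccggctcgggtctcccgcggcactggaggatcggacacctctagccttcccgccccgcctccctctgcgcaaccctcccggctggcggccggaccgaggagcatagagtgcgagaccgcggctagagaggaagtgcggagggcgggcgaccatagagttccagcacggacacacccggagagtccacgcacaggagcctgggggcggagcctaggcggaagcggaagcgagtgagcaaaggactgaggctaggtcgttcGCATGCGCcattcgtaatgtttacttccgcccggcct
Polrmt: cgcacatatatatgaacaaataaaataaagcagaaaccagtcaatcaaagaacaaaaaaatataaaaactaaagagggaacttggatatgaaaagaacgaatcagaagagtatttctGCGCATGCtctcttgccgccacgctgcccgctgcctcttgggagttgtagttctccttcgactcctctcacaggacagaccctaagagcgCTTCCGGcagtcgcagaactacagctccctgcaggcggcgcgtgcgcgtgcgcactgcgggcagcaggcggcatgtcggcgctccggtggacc
The Tfam window held an ETS match that began at base -47 relative to the start. The Tfb2m window held an NRF1 match at base 13 after it. The Polrmt window held both, at bases -133 (NRF1) and -43 (ETS). Of 32851 promoter windows in the same table, 2.71% held the NRF1 letters and 8.86% the ETS letters, and the motifs did not overlap. A further 4 motifs were searched: ERR (TCAAGGTCA, in 0.423% of windows), CRE (TGACGTCA, 1.79%), ATF4 (TGATGNAA, 3.97%) and an E box (CAGCTG, 16.3%). None was in these 3 windows. Among the other members with a window, Gabpa held the ETS letters and Esrra those of NRF1, ATF4 and the E box, while Ppargc1a, Pprc1, Nrf1 and Perm1 held none. No window of Ppargc1b was searched.

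The first comparison asked how the regulators differ between cell states in the absence of an inhibitor. Ppargc1a and Ppargc1b were higher, and Pprc1, Nrf1 and Tfam lower, in myotubes than in Luc myoblasts. In this comparison 5 of the 9 members tested were called, beside 69.4% of all genes, and the shares were not tested against each other. The median change was -0.09 over the members and 0.04 over all genes.

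Ppargc1a was at 0, 0 and 0.917 CPM (0, 0 and 10 counts) in the 3 Luc myoblast samples, at 1.22, 1.01 and 1.09 CPM at day 1 and at 3.1, 3.56 and 2.18 CPM in myotubes. The 3 states did not overlap, and all 9 values were low. The fitted change from myoblasts to myotubes was 3.34 ± 0.64 (edgeR adjusted p = 3.7e-05), but the gene entered the fit only through conditions where it was high, and without the samples numbered 3, which hold its 10 myoblast counts, the fitted change was 8.16. Ppargc1b was at 3.64, 3.25 and 3.76 CPM in myoblasts, 6.78, 7.63 and 7.1 at day 1 and 5.17, 4.39 and 5.5 in myotubes. Among these 3 groups its mean was highest at day 1, 1.97-fold above myoblasts (0.98 ± 0.18, edgeR adjusted p = 2.08e-05). The step down to myotubes was not stable, as given below. DMSO myotubes with GFP or LbNOX had means of 6.71 and 7.08 CPM, beside 7.17 at day 1.

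Pprc1 had the widest spread in absolute CPM of the members among the DMSO Luc myoblasts. It was at 26.6, 54.2 and 40.2 CPM there, against 19.8, 26 and 23.5 at day 1 and 24.9, 22.7 and 20.6 in myotubes. Its fall by 0.83 ± 0.25 from myoblasts to myotubes (edgeR adjusted p = 0.00393) did not pass without the samples numbered 2 (adjusted p = 0.0853). Nrf1, which encodes nuclear respiratory factor 1, was at 42.5, 50.9 and 52 CPM in myoblasts, 27, 28.5 and 36.5 at day 1 and 22.1, 20.4 and 23.7 in myotubes. The 3 states were ordered without overlap, and the step from myoblasts to myotubes was -1.13 ± 0.13 (edgeR adjusted p = 4.38e-09). Tfam went the same way with a smaller step, from 49.1, 46.1 and 42.8 CPM in myoblasts to 35.1, 29.2 and 33.2 in myotubes (-0.5 ± 0.09, edgeR adjusted p = 1.08e-05).

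The remaining members showed little difference between states. Polrmt was at 58, 63 and 58.6 CPM in myoblasts and 52.3, 57.5 and 51.6 in myotubes, with an interval of -0.31 to 0.02 for the change (2 SE to either side). Tfb2m was at 33.6, 39.8 and 39.2 against 41.8, 41.5 and 40.9 (interval -0.03 to 0.32), and Gabpa at 60.8, 55.6 and 60.5 against 56.9, 56.1 and 52.7 (interval -0.29 to 0.11). Esrra, which encodes ERRα, was at 1.98 to 3.28 CPM in all 9 samples, with a wide interval of -0.68 to 0.5. Perm1 had 1 to 7 counts in these samples.

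At day 1, 6 of 9 members were called against myoblasts, beside 63.6% of all genes, with Ppargc1a and Ppargc1b higher and Pprc1, Nrf1, Tfam and Polrmt lower. The calls of Ppargc1a, lost without the samples numbered 1 or 2, and of Pprc1, lost without those numbered 2, are among these. From day 1 to myotubes 4 of 9 were called, beside 35.6% of all genes: Ppargc1a rose (1.45 ± 0.53), and Ppargc1b (-0.47 ± 0.17), Nrf1 (-0.43 ± 0.13) and Tfam (-0.27 ± 0.09) fell. In all comparisons of states Ppargc1a entered only through conditions where it was high, so its values there are a description. Each of these 4 was lost without the samples of at least 1 number and with position as a covariate. Without the samples numbered 2 the day 1 changes of Tfam and Polrmt were -0.11 and -0.08 and not called, each of these calls being kept in 3 of 9 settings, and the call of Ppargc1b in myotubes against myoblasts was lost whichever number was left out. The day 1 calls of Ppargc1b and Nrf1 and the myotube calls of Nrf1 and Tfam against myoblasts were kept in every alternative setting run.

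**Figure D1:**
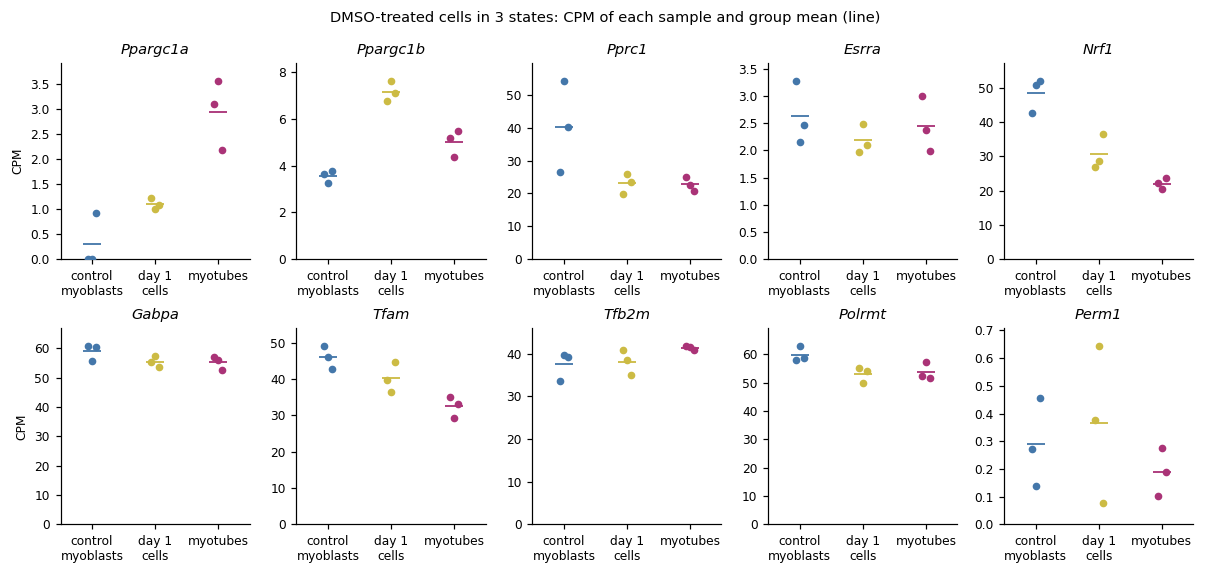
Level in CPM (linear axis from 0) of each member in Luc myoblasts, day 1 cells and myotubes under DMSO; points are the 3 samples of a state and lines their mean. Nrf1 stepped down from 42.5 to 52 CPM in myoblasts to 20.4 to 23.7 in myotubes, while Ppargc1a rose from at most 0.917 to at least 2.18 CPM.

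Myoblasts also differed from the other 2 states in transgene, doxycycline and serum, which cannot be told apart from differentiation. In bulk RNA, fewer cells of a type and less RNA per cell cannot be told apart either. Markers of dividing cells were lower in myotubes than in myoblasts for 4 of 4 genes, and markers of myotubes higher for 6 of 6. Their part in the members' differences was not tested. The reserve cell markers Pax7 and Cd34 summed to 46.6 to 50.8 CPM in myoblasts, 55.2 to 62.3 at day 1 and 48.8 to 51.5 in myotubes. Of the pair, Pax7 was called higher at day 1 (2.2 ± 0.3) and in myotubes (0.95 ± 0.32) than in myoblasts and lower in myotubes than at day 1 (-1.26 ± 0.29), and Cd34 was not called. Markers of adipocytes and osteoblasts were too low to be tested.

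Of the genes that work with the members, those that ERRα and PGC-1α are known to drive in muscle fell more often than they rose from myoblasts to day 1, 7 against 3 of 15 tested (median -0.09 against 0 for all genes, of which 31.3% rose and 32.3% fell). From day 1 to myotubes 11 of the 15 rose and none fell, with a median of 0.19 against 0 for all genes, of which 19.6% rose and 16% fell. From myoblasts to myotubes 7 of the 15 rose and 4 fell, among them Mb, the oxygen store myoglobin (10.59 ± 0.19), Fndc5, the precursor of irisin (5.82 ± 0.3), and the electron carrier Cycs (-0.77 ± 0.08). In that comparison 35.7% of all genes rose and 33.7% fell, with a median of 0.04, against 0.13 for these targets. Of 23 partners and regulators of the PGC-1 family 7 rose and 9 fell (median -0.03). They included Mef2c, a muscle transcription factor (10.18 ± 0.19), Prkaa2, a catalytic subunit of AMPK (2.97 ± 0.24), and Pparg, a nuclear receptor of fat cells (-2.05 ± 0.25). Of 18 other factors of mtDNA expression and replication 3 rose and 6 fell (median -0.11).

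The second comparison asked what respiratory chain inhibitors did to the regulators in dividing control myoblasts. Pprc1 rose with all 3 inhibitors, most with antimycin, and had the largest change among the 8 members that passed the count filter in each case. Tfam rose with all 3 as well, by less. The other members split by inhibitor: Nrf1 rose with antimycin, Tfb2m with piericidin and oligomycin, and Polrmt and Ppargc1b fell with piericidin. In all, 6 of 8 members tested were called with piericidin, 3 with antimycin and 3 with oligomycin, where 61.7%, 63.2% and 50.8% of all genes were called. Whether the members' shares differed from those of all genes was not tested.

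Pprc1 was at 26.6, 54.2 and 40.2 CPM under DMSO, 97.2, 86.9 and 104 with piericidin, 135, 128 and 130 with antimycin and 78.9, 71.9 and 72.5 with oligomycin. Every treated sample was above every DMSO sample, and the inhibitors did not overlap one another. The changes were 2.4-fold with piericidin (1.26 ± 0.19, edgeR adjusted p = 1.08e-06), 3.3-fold with antimycin (1.72 ± 0.19, edgeR adjusted p = 3.44e-09) and 1.83-fold with oligomycin (0.87 ± 0.19, edgeR adjusted p = 0.000258). Between inhibitors, antimycin gave more than oligomycin (0.85 ± 0.18, edgeR adjusted p = 0.000284). It also gave more than piericidin (0.46 ± 0.18, edgeR adjusted p = 0.0463), a difference that was lost without the samples numbered 2 or 3, with DESeq2 and with the position code as a covariate, and piericidin did not pass against oligomycin (0.39 ± 0.18, edgeR adjusted p = 0.097). Between pairs of inhibitors 6 of 8 members differed for antimycin and piericidin, 5 for antimycin and oligomycin and 4 for piericidin and oligomycin, beside 37.2%, 50% and 39.2% of all genes.

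Across all 35 conditions the highest Pprc1 means were those of Luc myoblasts with antimycin (131 CPM) and piericidin (96.1), of mitoLbNOX myoblasts with antimycin (81.2) and of Luc myoblasts with oligomycin (74.4). The mitoLbNOX samples, at 67.4, 83.3 and 92.8 CPM, overlapped both of their neighbours in that order. All other myoblast conditions had means from 40.3 to 64 CPM. Transduced myotubes with oligomycin had means of 39.7 and 41.8 CPM, and all other myotubes and the day 1 cells 15.9 to 32.3.

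Tfam was at 49.1, 46.1 and 42.8 CPM under DMSO and at 71.7, 68.8 and 62 with piericidin, 1.48-fold higher (0.57 ± 0.08, edgeR adjusted p = 1.17e-07). With antimycin it was at 55.3, 61.8 and 51.3 (0.32 ± 0.08, edgeR adjusted p = 0.000513), and with oligomycin at 56.3, 49.7 and 52.3 (0.2 ± 0.08, edgeR adjusted p = 0.0302). No treated sample was at or below the highest DMSO sample. The piericidin change was larger than the oligomycin change (0.37 ± 0.08, edgeR adjusted p = 0.000164). Without the samples numbered 2 the antimycin change was 0.2 and neither it nor the difference between piericidin and oligomycin passed, and the oligomycin change did not pass whichever number was left out.

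Tfb2m, the partner of TFAM at mtDNA promoters, was at 33.6, 39.8 and 39.2 CPM under DMSO, 44, 48.4 and 51.5 with piericidin (0.37 ± 0.11, edgeR adjusted p = 0.00419, lost without the samples numbered 3) and 53.6, 53.7 and 49 with oligomycin (0.47 ± 0.11, edgeR adjusted p = 0.000523). With antimycin it overlapped DMSO, at 33.7, 39.5 and 40.6, and was lower than with oligomycin (-0.43 ± 0.11, edgeR adjusted p = 0.00162). The third of these genes, Polrmt, moved otherwise. It was at 58, 63 and 58.6 CPM under DMSO and fell to 42.9, 51.6 and 48.6 with piericidin (-0.31 ± 0.09, edgeR adjusted p = 0.0026), but was at 71, 68.6 and 59.7 with oligomycin, and those inhibitors differed (-0.46 ± 0.09, edgeR adjusted p = 7.51e-05).

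Nrf1 was at 42.5, 50.9 and 52 CPM under DMSO and 62.8, 71.5 and 63.3 with antimycin (0.47 ± 0.09, edgeR adjusted p = 4.65e-05). With piericidin (44.1, 59.7 and 54) and oligomycin (47.6, 54.9 and 52.9) it overlapped DMSO. Ppargc1b fell with piericidin from 3.64, 3.25 and 3.76 to 1.47, 2.52 and 2.31 CPM (-0.73 ± 0.31, edgeR adjusted p = 0.0421), a call lost whichever number was left out. Gabpa, the DNA-binding subunit of GABP, was at 63, 71.7 and 75.1 CPM with piericidin against 60.8, 55.6 and 60.5 (0.26 ± 0.1, edgeR adjusted p = 0.0207). That call was lost without the samples numbered 2 (0.17) or 3 and with position as a covariate. Esrra was at 1.47, 2.19 and 1.26 CPM with piericidin against 3.28, 2.15 and 2.47 (-0.66 ± 0.3, edgeR adjusted p = 0.0563) and lower than with oligomycin (-0.84 ± 0.3, edgeR adjusted p = 0.0247), the latter lost without the samples numbered 1 or 3. Ppargc1a had 0, 0 and 10 counts under DMSO and 8, 13 and 7 with antimycin and 3, 0 and 0 with oligomycin, and did not pass the filter. Without it, the one call among these comparisons was antimycin against oligomycin (edgeR adjusted p = 0.0189).

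**Figure D2:**
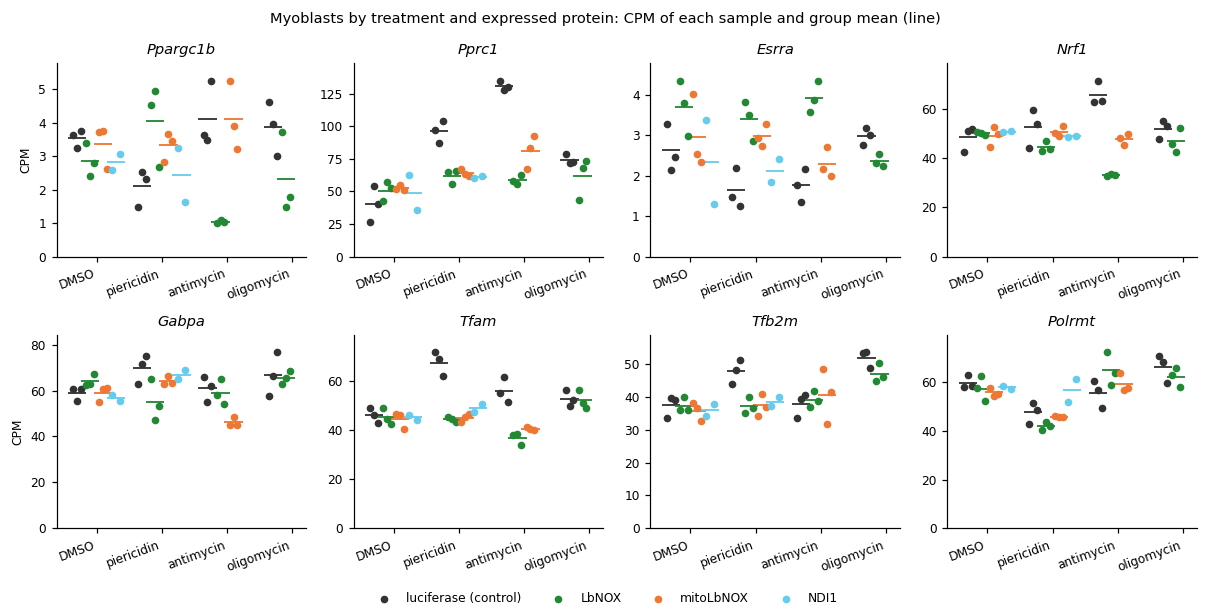
Level in CPM (linear axes from 0) of members in myoblasts under DMSO, piericidin, antimycin and oligomycin; points are single samples, lines the mean of a condition, and colours the transgene (Luc black, LbNOX green, mitoLbNOX orange, NDI1 blue). Pprc1 reached 128 to 135 CPM with antimycin in Luc cells and 55.9 to 62.2 in LbNOX cells.

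Summed markers of dividing cells moved with the inhibitors, from 1070 to 1090 CPM under DMSO to 792 to 824 with piericidin, 558 to 600 with antimycin and 789 to 824 with oligomycin. Markers of myotubes summed to 26.5 to 32.7, 82.6 to 91.8 and 22.3 to 30.6 CPM in the same order, with Acta1 the only one of 6 high enough to be tested. The lineage markers Myod1, Myf5 and Des summed to 514 to 540 CPM under DMSO and 521 to 540, 726 to 776 and 441 to 473 with the inhibitors. All 3 were called higher with antimycin, and 1 higher and 1 lower with each of the others. Of the 2 reserve cell markers, 1 was higher and 1 lower with piericidin, and 1 was lower with each of the others. Their part in the members' changes was not tested. All 3 DMSO samples had an outer position code in their labels, and the code is not explained there. With that position as a covariate the piericidin calls of Gabpa and Ppargc1b were lost and the other 10 calls against DMSO were kept. Between inhibitors, the calls of Pprc1 for antimycin and piericidin and of Esrra for antimycin and oligomycin were lost.

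Among other factors of mtDNA expression and replication, 9 of 18 rose and 1 fell with piericidin, 6 rose and 4 fell with antimycin, and 8 rose and 1 fell with oligomycin, with medians of 0.49, 0.03 and 0.52. Of all genes, 30.9%, 32.1% and 24.5% rose and 30.8%, 31.1% and 26.3% fell with the same inhibitors, with medians of 0, 0 and -0.01. The largest rise with piericidin was that of Lonp1, the matrix protease that degrades TFAM, at 2.52 ± 0.11 (193 against 34 CPM). Elac2, which processes mitochondrial tRNAs, rose by 1.72 ± 0.39, and the elongation factor Tefm by 0.91 ± 0.12. Partners and regulators of the PGC-1 family rose more often than they fell with antimycin, 11 against 6 of 21 (median 0.57), led by Kat2a (2.11 ± 0.55), an acetyltransferase that inhibits PGC-1α. Fnip1, which binds folliculin, and the CREB coactivator Crtc2 also rose, by 1.6 ± 0.17 and 1.42 ± 0.3. With piericidin 9 rose and 5 fell (median 0.34), and with oligomycin 3 rose and 4 fell (median -0.06). Known targets of ERRα and PGC-1α split, with 4 higher and 6 lower of 11 with piericidin, 3 and 4 with antimycin and 4 and 4 with oligomycin (medians of -0.22, -0.1 and 0.08). In each case Pdk4, a brake on pyruvate oxidation, and the fatty acid enzyme Acadm fell (-2.9 ± 0.18 and -1.61 ± 0.06 with piericidin), and the angiogenic factor Vegfa rose (2.43 ± 0.19 with piericidin).

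The third comparison asked whether oxidizing NADH outside the respiratory chain altered these responses. Under DMSO none of the 8 members was called between LbNOX, mitoLbNOX or NDI1 myoblasts and Luc myoblasts by edgeR or by DESeq2 with the count filter, whereas without it Pprc1 was called higher in mitoLbNOX cells (0.37, edgeR adjusted p = 0.00398). None had an unadjusted p under 0.05 in the filtered edgeR fit, and 2.68%, 1.77% and 4.61% of all genes were called. With LbNOX the Pprc1 rise was not called for any inhibitor: Pprc1 was at 42.3, 57.2 and 52.5 CPM under DMSO, 64.9, 55.6 and 65.4 with piericidin, 58, 55.9 and 62.2 with antimycin and 43.7, 68 and 73 with oligomycin. These groups overlapped. The response differed from that in Luc cells for antimycin (-1.5 ± 0.26, edgeR adjusted p = 2.06e-05) and piericidin (-0.96 ± 0.26, edgeR adjusted p = 0.00356), but the difference for oligomycin did not pass with the count filter (-0.58 ± 0.27, edgeR adjusted p = 0.206).

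For piericidin 5 of 8 members differed in response between LbNOX and Luc cells, where 44.3% of all genes did. Tfam, at 49.1, 44.4 and 42.5 CPM under DMSO and 45.5, 44.6 and 43.3 with piericidin in LbNOX cells, differed by -0.59 ± 0.11 (edgeR adjusted p = 3.39e-05). Gabpa (-0.48 ± 0.14) and Tfb2m (-0.37 ± 0.15) differed in the same direction and Ppargc1b in the other (1.23 ± 0.43). Those 3 differences and that of Pprc1 were each lost without the samples of at least 1 number (Gabpa was -0.31 without number 2), and that of Tfam was kept throughout. Polrmt was the member still called with piericidin in LbNOX cells, where 8.87% of all genes were. It was at 40.3, 43.8 and 42.2 CPM against 57.7, 62.6 and 52.2 (-0.45 ± 0.09, edgeR adjusted p = 0.000729), a call lost without the samples numbered 2. The fall was not shown to differ from that in Luc cells (-0.14 ± 0.12, interval -0.38 to 0.11). Markers of cell state differed in the piericidin response as well. Against Luc cells it was higher for 3 of 4 markers of dividing cells. Of the lineage markers Myod1, Myf5 and Des 1 was higher and 1 lower, as were the 2 reserve cell markers. The part of these markers in the members' differences was not tested.

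For Nrf1 and Tfam, antimycin in LbNOX cells gave calls opposite in direction to those in Luc cells. Nrf1 was at 50.6, 50.3 and 49.3 CPM under DMSO and at 32.9, 33.6 and 33.3 with antimycin (-0.58 ± 0.09, edgeR adjusted p = 7.78e-06). Tfam fell from 49.1, 44.4 and 42.5 to 38.1, 38.4 and 34.1 CPM (-0.28 ± 0.08, edgeR adjusted p = 0.00294). Ppargc1b fell from 3.4, 2.41 and 2.8 to 1.01, 1.08 and 1.04 CPM, which are 9 to 11 counts (-1.43 ± 0.34, edgeR adjusted p = 0.000938). All 3 groups were below DMSO without overlap. These 3 of 8 members were called beside 46.1% of all genes. The response differed from that in Luc cells for Nrf1 (-1.05 ± 0.13, edgeR adjusted p = 7.38e-08), Tfam (-0.6 ± 0.11, edgeR adjusted p = 2.26e-05), Ppargc1b (-1.68 ± 0.45, edgeR adjusted p = 0.00248) and Pprc1, 4 of 8 beside 51.5% of all genes, and all 4 were kept in every setting run. Markers of cell state moved with this difference: the antimycin change was lower in LbNOX than in Luc cells for the myogenic factors Myf5 (-3.98 ± 0.2) and Myod1 (-1.05 ± 0.1) and for Acta1 (-1.36 ± 0.19), and higher for 3 of 4 markers of dividing cells and for Cd34 (0.48 ± 0.09). With antimycin the lineage markers Myod1, Myf5 and Des summed to 726 to 776 CPM in Luc and 470 to 496 in LbNOX cells, the markers of myotubes to 82.6 to 91.8 and 32.1 to 38.5, and those of dividing cells to 558 to 600 and 613 to 640. Their part in the members' differences was not tested.

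With oligomycin, Tfam and Tfb2m rose in LbNOX cells too, 2 of 8 members beside 35.2% of all genes. Tfam was at 56.3, 51.1 and 49.1 CPM (0.22 ± 0.08, edgeR adjusted p = 0.0249). Tfb2m was at 44.8, 50.5 and 46.1 against 36, 40.1 and 36.1 (0.34 ± 0.11, edgeR adjusted p = 0.0137). The Tfam call was lost whichever number was left out, without the count filter and with only the groups compared, and that of Tfb2m without the samples numbered 2 or 3. With the count filter no member differed in its oligomycin response between LbNOX and Luc cells by edgeR or DESeq2, where 7.98% of all genes did and 2 members (Pprc1 and Esrra) had an unadjusted p under 0.05. Without the filter the Pprc1 difference, at -0.57, was called (edgeR adjusted p = 0.000615).

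**Figure D3:**
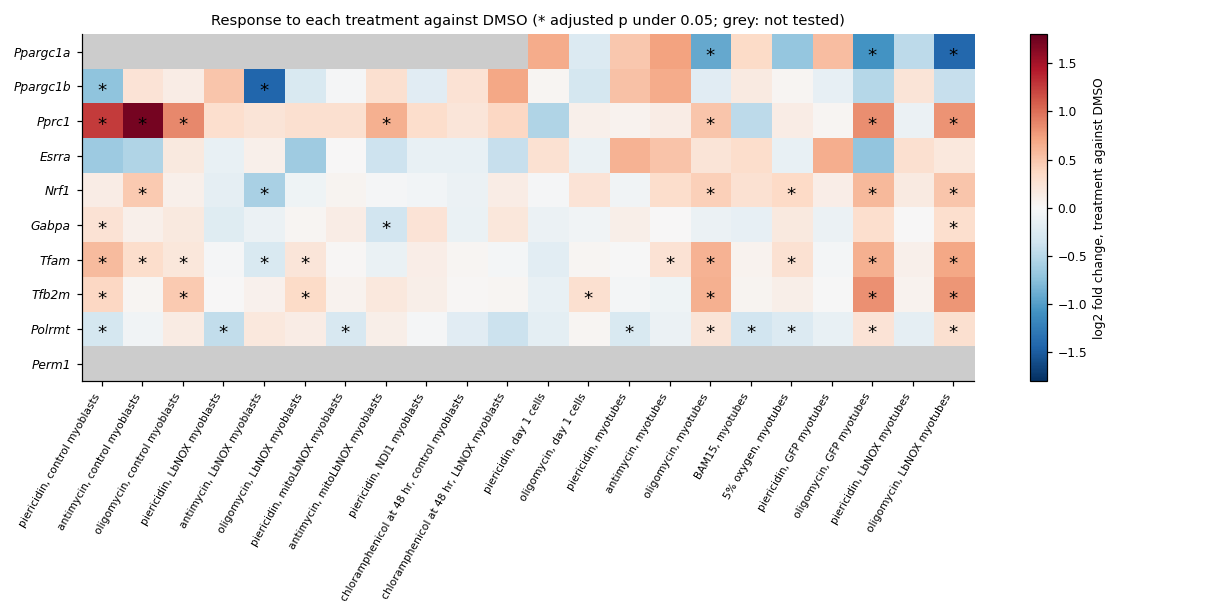
Heat map of the log2 fold change against the matching DMSO samples (red higher, blue lower, grey not tested), with members in rows and treatments of each cell type in columns; an asterisk marks a call. Pprc1 with antimycin ran from 1.72 in Luc to 0.23 in LbNOX myoblasts, and Nrf1 from 0.47 to -0.58.

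The mitochondrial enzyme was compared with Luc cells in the same way. Under antimycin, mitoLbNOX cells still raised Pprc1, from 51.9, 54.6 and 51.4 to 67.4, 83.3 and 92.8 CPM (0.64 ± 0.19, edgeR adjusted p = 0.00491), less than Luc cells did (-1.08 ± 0.26, edgeR adjusted p = 0.00196). Gabpa fell from 54.9, 60.7 and 61 to 45, 48.5 and 44.9 CPM (-0.34 ± 0.1, edgeR adjusted p = 0.00606). These 2 calls, beside 47.7% of all genes, were lost without the samples numbered 3. With piericidin 1 of 8 members was called, beside 11.2% of all genes: Polrmt, at 46, 45.7 and 45.7 against 57.9, 54.4 and 55.4 CPM (-0.29 ± 0.09, edgeR adjusted p = 0.0261), was lower, a call lost whichever number was left out. The piericidin changes of Pprc1 (0.29 ± 0.19) and Tfam (0.02 ± 0.08) were not called, and were lower than in Luc cells by -0.98 ± 0.26 and -0.55 ± 0.11, 2 of 8 beside 42.8%. For antimycin 4 of 8 members differed from Luc cells, beside 31.7%, all in the negative direction: Pprc1, Nrf1 (-0.49 ± 0.13), Gabpa (-0.42 ± 0.14) and Tfam (-0.44 ± 0.11). Of these 6 differences, Tfam with piericidin and Pprc1 with antimycin were kept in every setting run, and the others were lost without the samples numbered 2 or 3. The antimycin change was also lower than in Luc cells for all 3 lineage markers and Acta1 (-0.54), and higher for 1 of 4 markers of dividing cells. For piericidin 1 lineage marker was higher and 1 lower, 1 of 4 markers of dividing cells was higher, and Cd34 was lower. The part of these markers was not tested.

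NDI1 cells gave no call with piericidin among the members by edgeR or DESeq2 and no unadjusted p under 0.05, beside 0.00835% of all genes. Pprc1 was at 62.6 and 35.4 CPM under DMSO and 59.9 and 61.5 with piericidin. The DMSO pair spanned the treated pair. Tfam was at 46.2 and 44.3 against 47.2 and 50.8 CPM, an interval of -0.06 to 0.3 for the change. Against Luc cells the piericidin response was lower for Pprc1 (-0.94 ± 0.3, edgeR adjusted p = 0.0102) and Tfam (-0.45 ± 0.12, edgeR adjusted p = 0.00271), 2 of 8 beside 42.7% of all genes. Without the samples numbered 1 the Pprc1 difference was -0.16 and not called, without those numbered 2 it was -1.64, and it was also lost without those numbered 3 and with only the groups compared. The Tfam difference was lost without the samples numbered 1 or 2. Against Luc cells the piericidin change was also higher for 3 of 4 markers of dividing cells and lower for Acta1 (-0.91) and Cd34. Among the lineage markers 1 was higher and 1 lower. The part of these markers was not tested.

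With the count filter, chloramphenicol for 48 hr gave no call among the 8 members by edgeR or DESeq2 in either line, where 8.45% of all genes were called in Luc and 0.931% in LbNOX cells. No member had an unadjusted p under 0.05 in Luc cells and 2 had in LbNOX cells: Polrmt at 42.2 and 45 against 50.8 and 63.7 CPM (-0.39 ± 0.11) and Pprc1 at 61.6 and 57.4 against 52.4 and 39.6 CPM (0.37 ± 0.13). Without the count filter these 2 were called by edgeR (adjusted p = 0.0424 and 0.0444). The responses of the lines did not differ for any member by edgeR or DESeq2 (0.53% of all genes, no member with an unadjusted p under 0.05). Lonp1 again rose in Luc cells (1.48 ± 0.1), with 2 more of the 17 other mtDNA factors tested (median 0.33), where 4.83% of all genes rose and 3.62% fell (median 0.01).

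The fourth comparison asked which mitochondrial defects moved the regulators in myotubes. Oligomycin moved the most of them: 6 of 9 members were called, beside 33.3% of all genes, with Tfam, Tfb2m, Polrmt, Nrf1 and Pprc1 higher and Ppargc1a lower. Piericidin, antimycin and BAM15 each gave 1 call and 5% oxygen 3, beside 8.99%, 12.9%, 25.4% and 22.1% of all genes. These comparisons share their DMSO samples.

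The 3 mtDNA factor genes, whose promoters are shown above, rose together with oligomycin. Tfam was at 35.1, 29.2 and 33.2 CPM under DMSO and 49.7, 53.2 and 48.9 with oligomycin (0.63 ± 0.08, edgeR adjusted p = 1.39e-06). Tfb2m went from 41.8, 41.5 and 40.9 to 59.5, 64.4 and 70.3 CPM (0.64 ± 0.09, edgeR adjusted p = 1.79e-06). Polrmt went from 52.3, 57.5 and 51.6 to 68.6, 58.8 and 62.7 CPM (0.23 ± 0.06, edgeR adjusted p = 0.0077). None of the 3 overlapped. The first 2 calls were kept in every setting run, and that of Polrmt was lost without the samples numbered 1 (0.14) or 3.

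Nrf1 was at 34.5, 29.8 and 25.6 CPM with oligomycin against 22.1, 20.4 and 23.7 (0.43 ± 0.12, edgeR adjusted p = 0.00758). Pprc1 was at 23.3, 35.5 and 38.2 against 24.9, 22.7 and 20.6 (0.5 ± 0.18, edgeR adjusted p = 0.0313), and 1 treated sample lay inside the DMSO range. Ppargc1a was at 1.9, 1.73 and 1.06 CPM (20, 20 and 11 counts) against 3.1, 3.56 and 2.18 (30, 39 and 23 counts), lower in all 3 (-0.92 ± 0.31, edgeR adjusted p = 0.0236). These are the less secure calls: Nrf1 was lost without the samples numbered 1 or 2, Pprc1 without those numbered 2 or 3 (0.31 without the latter), and Ppargc1a whichever number was left out. Ppargc1a also passed the filter only through myotube conditions where it was higher than with oligomycin alone, so its place among the 6 calls is a description, and without the filter it was not called (edgeR adjusted p = 0.141).

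With a second treatment on top, the mtDNA factors lay below the oligomycin range. Tfam was at 33.7, 33.3 and 32.6 CPM with oligomycin and piericidin, 38, 33.8 and 37.4 with oligomycin and BAM15, and 36.1, 31.4 and 35.5 with oligomycin in 5% oxygen. Against oligomycin alone the differences were -0.59 ± 0.08 (edgeR adjusted p = 6.24e-06), -0.45 ± 0.08 (edgeR adjusted p = 0.00014) and -0.52 ± 0.08 (edgeR adjusted p = 1.97e-05). None of the 9 samples reached the oligomycin range.

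Tfb2m was at 44.7, 43.7 and 41.6, at 39, 46.9 and 50.5 and at 46.6, 44.6 and 44 CPM in the same order. Its differences were -0.57 ± 0.08, -0.49 ± 0.08 and -0.49 ± 0.09, with edgeR adjusted p-values of 1.77e-05, 8.11e-05 and 7.07e-05. Polrmt was at 46.6, 49.9 and 48.5, at 38.9, 42.2 and 42.3 and at 52.9, 54.2 and 51.9 CPM (-0.38 ± 0.06, -0.6 ± 0.07 and -0.22 ± 0.06, with edgeR adjusted p-values of 9.46e-05, 9.25e-08 and 0.01). With BAM15 Polrmt was below every DMSO sample, as it was with BAM15 alone. The Tfam and Tfb2m differences were kept in every setting run for all 3 combinations, and that of Polrmt for piericidin and BAM15 but not for 5% oxygen, where it was lost without the samples numbered 1 or 3.

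Ppargc1a went the other way. It was at 4.08, 3.25 and 2.56 CPM with oligomycin and piericidin (1.09 ± 0.31, edgeR adjusted p = 0.0117), 2.8, 3.89 and 3.62 with oligomycin and BAM15 (1.15 ± 0.3, edgeR adjusted p = 0.00578) and 2.38, 2.62 and 3.31 with oligomycin in 5% oxygen (0.85 ± 0.31, edgeR adjusted p = 0.0381). All 9 values were above the oligomycin range. The first and the last of these calls were lost whichever number was left out, with 0.49 for 5% oxygen without the samples numbered 3, and that of BAM15 was lost without the samples numbered 2 or 3. The same limit of the filter applies, and without it BAM15 was still called (edgeR adjusted p = 0.0371) and piericidin and 5% oxygen were not (edgeR adjusted p = 0.0654 and 0.257). Pprc1 was lower with added BAM15, at 20, 21.9 and 16.5 CPM (-0.71 ± 0.18), and in 5% oxygen, at 21.9, 23.7 and 18.8 (-0.55 ± 0.18). Both calls were lost without the samples numbered 2 or 3, and were -0.47 and -0.35 without the latter.

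In all, 5, 5 and 6 of 9 members differed from oligomycin alone with piericidin, BAM15 and 5% oxygen, where 20.9%, 26.1% and 33.3% of all genes did. Gabpa was the further call, higher with piericidin (64.8, 58.8 and 62 CPM) and in 5% oxygen (59.9, 66.7 and 55.8) than with oligomycin alone (53, 47.9 and 54.3), by 0.27 ± 0.1 in each, and not stably so. It was 0.13 in 5% oxygen without the samples numbered 2. Against the second treatment alone, oligomycin changed no member with piericidin (1.19% of all genes) or BAM15 (1.7%) by edgeR or DESeq2, with 1 member in each (Ppargc1b and Gabpa) at an unadjusted p under 0.05. In 5% oxygen it changed 1 (4.26%), Polrmt, by 0.24 ± 0.07 (edgeR adjusted p = 0.0296), and that call was lost whichever number was left out.

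**Figure D4:**
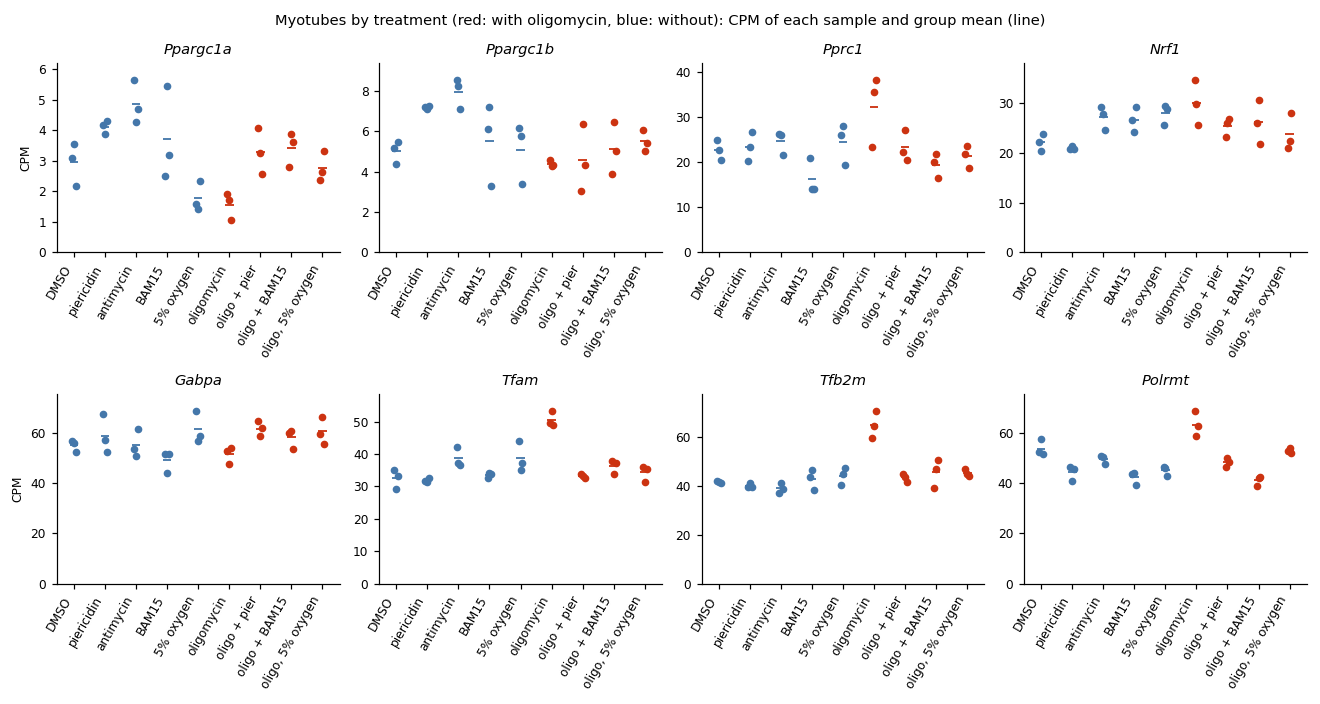
Level in CPM (linear axes from 0) of members in untransduced myotubes under each of the 9 conditions; points are the 3 samples of a condition, lines their mean, and red marks conditions with oligomycin. Tfam stood at 48.9 to 53.2 CPM with oligomycin alone and at 31.4 to 38 with oligomycin and a second treatment.

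Outside oligomycin the myotube calls were few and small. Polrmt was lower with piericidin, at 46.6, 40.8 and 45.5 CPM (-0.27 ± 0.07, edgeR adjusted p = 0.00852), with BAM15, at 43.5, 44.1 and 39.4 (-0.34 ± 0.07, edgeR adjusted p = 0.000429), and in 5% oxygen, at 46.3, 46.2 and 42.7 (-0.24 ± 0.07, edgeR adjusted p = 0.00864). No treated sample reached the DMSO range. The BAM15 call was kept throughout, the piericidin call was lost without the samples numbered 2 (-0.17) and the 5% oxygen call without those numbered 2 or 3. Tfam was higher in 5% oxygen, at 43.9, 35.2 and 37.1 (0.27 ± 0.08, edgeR adjusted p = 0.0197), and with antimycin, at 42.3, 37.3 and 36.7 (0.26 ± 0.08, edgeR adjusted p = 0.038). Both calls were lost in most settings. Nrf1 was higher in 5% oxygen, at 25.5, 29.4 and 28.8 (0.36 ± 0.12, edgeR adjusted p = 0.0354), a call lost without the samples numbered 1 or 2.

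For the PGC-1 genes, antimycin placed all 3 samples above DMSO for Ppargc1a (5.64, 4.27 and 4.71 CPM, 0.73 ± 0.28, edgeR adjusted p = 0.0924) and Ppargc1b (8.54, 8.26 and 7.11 against 5.17, 4.39 and 5.5 CPM, 0.67 ± 0.26, edgeR adjusted p = 0.087). Neither passed. Piericidin also placed all 3 samples of both genes above DMSO, and neither was called. It gave 4.17, 3.87 and 4.32 CPM for Ppargc1a (0.49 ± 0.29, edgeR adjusted p = 0.347) and 7.12 to 7.24 CPM for Ppargc1b. In 5% oxygen Ppargc1a was at 1.57, 1.42 and 2.34 (-0.7 ± 0.3, edgeR adjusted p = 0.107), overlapping DMSO by 1 sample.

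Markers of myotubes summed to 13600 to 13800 CPM with oligomycin, above the 11000 to 11400 under DMSO, and to 13100 to 13300 with piericidin. Single markers went both ways: of 6, 2 were called higher and 2 lower with oligomycin, and 2 higher and 3 lower with piericidin. The lineage markers Myod1, Myf5 and Des summed to 3310 to 3620 CPM with oligomycin against 4000 to 4150 under DMSO. Of these 3 markers 1 was called higher and 2 lower. Those of dividing cells were at 113 to 128 CPM with oligomycin against 114 to 139 under DMSO, at 19.2 to 24.8 in 5% oxygen and at 23.6 to 25.2 in 5% oxygen with oligomycin. Their part was not tested. With oligomycin 6 of 18 other mtDNA factors rose and 2 fell (median 0.18), beside 16.9% and 16.4% of all genes, led by Lonp1 (1.01 ± 0.13), the mtDNA helicase Twnk (0.97 ± 0.12) and the topoisomerase Top1mt (0.73 ± 0.17). Targets of ERRα and PGC-1α fell in 4 of 15 cases and rose in none, with a median of -0.09 against -0.01 for all genes. They included Fndc5 (-1.32 ± 0.17) and Mb (-0.34 ± 0.06). Against oligomycin alone both were higher with each second treatment, Fndc5 by 0.82 ± 0.18, 0.95 ± 0.17 and 0.99 ± 0.18 and Mb by 0.43 ± 0.06, 0.96 ± 0.06 and 1.41 ± 0.06 with piericidin, BAM15 and 5% oxygen. Mb also rose with each of these 3 on its own (0.26 ± 0.06, 0.74 ± 0.06 and 1.09 ± 0.06 against DMSO), and Fndc5 was not called there. Among partners and regulators 5 of 23 rose and 6 fell, with Prkaa2 at -1.06 ± 0.16 and Mybbp1a, a repressor of PGC-1α, at 0.9 ± 0.05.

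Adenovirus-transduced myotubes, a separate set of 15 samples, gave a second reading of oligomycin. In GFP myotubes 6 of 9 members were called (25.9% of all genes) and in LbNOX myotubes 7 (32%). Tfb2m was at 47.8 and 41.2 CPM under DMSO and 81.1 and 74.1 with oligomycin in GFP cells (0.82 ± 0.1, edgeR adjusted p = 2.19e-05), and at 45.1, 45 and 37.8 against 77.8, 71.2 and 72.9 in LbNOX cells (0.79 ± 0.08, edgeR adjusted p = 2.98e-06). Tfam rose from 39.2 and 37.1 to 58.4 and 59.4 CPM with GFP (0.64 ± 0.12, edgeR adjusted p = 0.000771) and from 32.5, 33 and 39.2 to 56.9, 53.7 and 59.1 with LbNOX (0.69 ± 0.1, edgeR adjusted p = 5.38e-05). Pprc1, whose rise was small in untransduced myotubes, went from 24.4 and 22.8 to 41.2 and 42.4 CPM with GFP (0.84 ± 0.15, edgeR adjusted p = 0.000572) and from 25.1, 22.3 and 20 to 42.2, 36.9 and 39.9 with LbNOX (0.81 ± 0.12, edgeR adjusted p = 9.4e-05). No treated sample of these 3 genes overlapped DMSO, and these 6 calls were kept in every setting run. Cell-state markers moved with oligomycin here as well. The lineage markers summed to 3340 to 3460 CPM against 3960 to 4220 under DMSO with GFP, and to 3220 to 3240 against 3900 to 3940 with LbNOX. Of the 6 myotube markers 2 were called higher and 3 lower in each line. Their part was not tested.

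Ppargc1a was lower with oligomycin here too. It was at 3.6 and 2.8 CPM under DMSO and 1.73 and 1.31 with oligomycin in GFP cells (-1.07 ± 0.32, edgeR adjusted p = 0.0243, lost whichever number was left out). The GFP oligomycin group, at 17 and 15 counts, did not itself meet the filter of 16 in every sample. Without the filter the GFP change was not called (edgeR adjusted p = 0.145). In LbNOX cells it was at 6.86, 6.2 and 5.84 against 2.57, 2.06 and 2.48 (-1.41 ± 0.24, edgeR adjusted p = 0.000341, kept in every setting run). Nrf1 was higher with GFP (0.58 ± 0.13, edgeR adjusted p = 0.00427, but 0.32 and not called without the samples numbered 1) and with LbNOX (0.5 ± 0.11, edgeR adjusted p = 0.00228). Polrmt was higher by 0.25 ± 0.09 with GFP and by 0.29 ± 0.07 with LbNOX. The former was lost whichever number was left out and was 0.09 without number 1 and 0.41 without number 2, and the latter was lost without number 3. Gabpa was called with LbNOX (0.3 ± 0.1, edgeR adjusted p = 0.0279) but at 0.19 without number 2 was not, nor was it without number 3.

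LbNOX did not detectably change the oligomycin response in myotubes. No member differed by edgeR or DESeq2, none had an unadjusted p under 0.05, and 0% of all genes were called. The intervals for the difference were -0.29 to 0.22 for Tfb2m, -0.25 to 0.34 for Tfam and -0.4 to 0.35 for Pprc1, and the much wider one for Ppargc1a was -1.15 to 0.47. With the count filter piericidin called no member by edgeR or DESeq2 in GFP (3.09% of all genes) or LbNOX myotubes (6.78%), with no member and 1 member (Polrmt) at an unadjusted p under 0.05, nor did the lines differ in that response by either tool (0% of all genes, and Ppargc1a at an unadjusted p under 0.05). Under DMSO no member was called between LbNOX and GFP myotubes by either tool, beside 0.0242% of all genes. Ppargc1a had an unadjusted p under 0.05 there, at 6.86, 6.2 and 5.84 against 3.6 and 2.8 CPM (0.99 ± 0.27, edgeR adjusted p = 0.6).

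In day 1 cells piericidin and oligomycin gave few calls among the regulators. With piericidin no member was called by edgeR or DESeq2 with the count filter, beside 2.75% of all genes, and 1, Polrmt, had an unadjusted p under 0.05. Without the filter Pprc1 was called lower (-0.55, edgeR adjusted p = 0.00417). With oligomycin 1 of 9 was, Tfb2m, beside 20.7% of all genes: it was at 46.2, 43.8 and 48.2 against 40.9, 38.5 and 35.1 CPM (0.29 ± 0.09, edgeR adjusted p = 0.0488). That call was lost with DESeq2 and whichever number was left out, and was 0.19 without the samples numbered 3. Lonp1 rose here too (1.49 ± 0.12).

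The last comparison tested whether a response differed between myotubes and Luc myoblasts. For piericidin 5 of 9 members differed, beside 46.5% of all genes, with Pprc1 (-1.14 ± 0.35, edgeR adjusted p = 0.00789), Tfam (-0.54 ± 0.12, edgeR adjusted p = 0.000692) and Tfb2m (-0.36 ± 0.13, edgeR adjusted p = 0.0179) lower in myotubes, and Ppargc1b (1.31 ± 0.27, edgeR adjusted p = 0.000195) and Esrra (1.32 ± 0.43, edgeR adjusted p = 0.0121) higher. Without the samples numbered 1 the Pprc1 and Esrra differences were not called, nor was that of Esrra without those numbered 3 or that of Tfb2m with position as a covariate. For antimycin 2 of 9 differed, beside 47.9%: Pprc1 by -1.55 ± 0.34 (edgeR adjusted p = 0.000452), kept throughout, and Esrra by 1.09 ± 0.42, lost whichever number was left out. For oligomycin only Tfam did, beside 29% of all genes. Its rise was larger in myotubes, by 0.44 ± 0.12 (edgeR adjusted p = 0.0066), though 0.28 and not called without the samples numbered 2, and not called with position as a covariate. The Pprc1 response to oligomycin was not shown to differ (-0.37 ± 0.34, interval -1.05 to 0.31). The confounded transgene, doxycycline and serum apply here as above.

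By likeness of pattern over the 35 conditions, each condition's mean log2 CPM centred on its own experiment, the genes nearest to Pprc1 were Ifrd1 (Pearson r = 0.932), Pdcd2 (0.921), Trmt61a (0.92), Chchd4 (0.914) and Polr3d (0.913) of 9668 genes. Those nearest to Ppargc1a were Mgrn1 (0.717), Pgam2 (0.712) and Gprc5b (0.707), and those nearest to Ppargc1b were Nacc2 (0.819), Pdzrn3 (0.795) and Dock9 (0.784), of 9669 genes. The conditions share libraries and controls, so the coefficients describe these 35 points. Ppargc1a met the count filter in none of the 17 myoblast conditions, so its coefficients rest in part on values near the floor.

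Positions are those of the GENCODE annotation of GRCm38. Ppargc1a lies at chr5:51454250-51567726, Pprc1 at chr19:46044886-46072915, Esrra at chr19:6910977-6921813, Nrf1 at chr6:30047988-30153458 and Gabpa at chr16:84834925-84863779. Tfam lies at chr10:71225464-71238280, Tfb2m at chr1:179528055-179546267, Polrmt at chr10:79736123-79746581 and Perm1 at chr4:156215868-156221307. The libraries did not mark strand. Exons of Gabpa share 397 bases (7% of its exonic bases) with Atp5j on the other strand, those of Pprc1 177 bases (2.8%) with Ldb1, and those of Esrra 73 bases (1.7%) with Trmt112, so that reads from these stretches could come from either gene.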

How the data were processed

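Total RNA from the 96 samples was made into polyA-selected Smart-seq2 libraries (50 ng each) and sequenced on 2 flow cells, whose reads the authors summed. Per the submitters' processing notes and the study's methods, reads were demultiplexed with bcl2fastq 2.20.0.422 and pseudoaligned with kallisto 0.44, with bias correction, to the Ensembl mouse transcripts of GRCm38.p6 with the transgene sequences added. The authors then deposited estimated counts per gene, summed over transcripts with tximport. The deposited values were whole numbers and were used as they stand. Bias correction and summing over isoforms can shift counts of genes with many isoforms or few reads.

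From these, counts were tested with edgeR 4.0.16 (glmQLFit, glmQLFTest, TMM) in R 4.3.3, in 6 fits on separate sets of groups, over 50 comparisons, with Benjamini-Hochberg adjustment over all genes of a fit (11704 to 12766 genes with at least 16 counts in every sample of at least 1 group). SE is the absolute log2 fold change over the square root of F. Groups came from the sample labels, and no 2 samples of a group were identical (87 pairs). Depth limits precision for Ppargc1a, Ppargc1b, Esrra and Perm1. The edgeR step was tested on simulated data. The members, gene lists and markers were chosen with earlier results of these data known. All members were named, and of each list up to 3 called genes with the largest change and a mean of at least 50 counts. The alternatives were DESeq2 (1.42.0), its size factors, no count filter, only the groups compared, the replicate number as a block, the position code as a covariate and leaving out each replicate number. Promoters came from RefSeq (windows of 9 of 10 members were searched) and gene coordinates from GENCODE.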

Additional observations from a re-analysis of the deposited data

Results flagged for a closer look

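Each result below is a response that differed between cell types under the same inhibitor, by edgeR's test of the difference itself. Values are differences in log2 fold change, the response in the named cells minus that in Luc control myoblasts, so a negative value can be a smaller rise, no change or a fall. The report gives their errors and stability.

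The Pprc1 change was lower than in Luc myoblasts with piericidin in LbNOX (-0.96), mitoLbNOX (-0.98) and NDI1 (-0.94) myoblasts and in myotubes (-1.14), and with antimycin in LbNOX (-1.5) and mitoLbNOX (-1.08) myoblasts and in myotubes (-1.55).

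The Tfam change was lower with piericidin in LbNOX (-0.59), mitoLbNOX (-0.55) and NDI1 (-0.45) myoblasts and in myotubes (-0.54), and with antimycin in LbNOX (-0.6, a fall against a rise in Luc cells) and mitoLbNOX (-0.44) myoblasts. It was higher with oligomycin in myotubes (0.44).

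The Nrf1 change with antimycin was lower in LbNOX (-1.05, a fall against a rise in Luc cells) and mitoLbNOX (-0.49) myoblasts. That of Gabpa was lower with piericidin in LbNOX (-0.48) and with antimycin in mitoLbNOX (-0.42) myoblasts, the latter a fall that was called in mitoLbNOX cells beside no call in Luc cells. That of Tfb2m was lower with piericidin in LbNOX myoblasts (-0.37) and in myotubes (-0.36).

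Ppargc1b differed upward with piericidin in LbNOX myoblasts (1.23) and in myotubes (1.31), and downward with antimycin in LbNOX myoblasts (-1.68). Esrra differed upward in myotubes with piericidin (1.32) and antimycin (1.09). All of these differences are measured against the same 3 Luc DMSO samples.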

How the results depend on the processing

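Of the single-member values that were called, none changed direction in any setting, while some that were not called changed sign. The next counts take called and uncalled values together. In settings that left no samples out, 2417 values kept their side of the threshold, 91 lost a call and 27 gained one. In settings that left samples out, 1246 kept their side, 138 lost a call and 14 gained one. Every loss is of a called value, while the values that kept their side include those called in neither fit. These counts therefore do not give the share of calls that were lost, which is larger than the share of all values. Counts of members called moved as follows.

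Fitting only the groups compared gave 3 called members at day 1 against myoblasts, 1 for oligomycin in LbNOX myoblasts, 2 for piericidin in mitoLbNOX myoblasts, 1 for the NDI1 difference, 3 for oligomycin in 5% oxygen against oligomycin and 0 for oligomycin in 5% oxygen against 5% oxygen. Without the count filter there were 0 calls for piericidin, antimycin and 5% oxygen in myotubes, for oligomycin in 5% oxygen against 5% oxygen and for oligomycin at day 1. The same setting gave 1 call for the LbNOX oligomycin difference, mitoLbNOX under DMSO, piericidin in LbNOX myotubes, piericidin at day 1 and the antimycin difference of myotubes, 2 for myotubes against day 1, chloramphenicol in LbNOX cells and BAM15, and 3 for antimycin against piericidin, the LbNOX piericidin difference and oligomycin in 5% oxygen against oligomycin. With position as a covariate there were 0 for myotubes against day 1, piericidin in mitoLbNOX cells, antimycin in myotubes and the oligomycin difference of myotubes, and 1 for their antimycin difference. DESeq2's Wald test gave 0 for antimycin in myotubes, oligomycin in 5% oxygen against 5% oxygen and oligomycin at day 1, 1 for the antimycin difference of myotubes and 2 for BAM15. DESeq2's size factors gave 0 for oligomycin at day 1. The replicate numbers did not pair the samples: the mean correlation of deviations between same-numbered samples was -0.042 to 0.035 in the 5 experiments. The replicate block gave 0 calls for oligomycin at day 1 and moved no other count past 1.5 times.

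Leaving out each replicate number in turn moved these counts. It was 0 throughout for piericidin in mitoLbNOX myoblasts, oligomycin in 5% oxygen against 5% oxygen and oligomycin at day 1. It ran from 0 to 1 for piericidin in LbNOX myoblasts and in myotubes, antimycin and 5% oxygen in myotubes, the NDI1 difference and the oligomycin difference of myotubes, from 0 to 2 for oligomycin in LbNOX myoblasts and from 0 to 3 for antimycin in mitoLbNOX myoblasts. It ran from 1 to 2 for myotubes against day 1, BAM15, the mitoLbNOX piericidin difference and the antimycin difference of myotubes, and from 1 to 4 for the mitoLbNOX antimycin difference. It ran from 2 to 3 for piericidin against oligomycin and the LbNOX piericidin difference, from 2 to 4 for antimycin against piericidin and from 2 to 5 for day 1 against myoblasts. It was 3 throughout for oligomycin in myotubes, from 3 to 4 for myotubes against myoblasts, antimycin against oligomycin, oligomycin with piericidin or in 5% oxygen against oligomycin and oligomycin in GFP myotubes, and from 3 to 5 for piericidin in Luc myoblasts, oligomycin with BAM15 against oligomycin and the piericidin difference of myotubes. Fewer samples entered these fits, and a lone GFP or NDI1 sample was assumed to vary like the other groups.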

Other observations

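Perm1, which encodes a coregulator that raises oxidative genes in muscle downstream of PGC-1α, stayed under the count filter in every condition. Its highest counts were in LbNOX myotubes with piericidin, at 14, 17 and 12 (1.37, 1.69 and 1.2 CPM), against 4, 1 and 1 under DMSO in the same cells. In GFP myotubes it had 8 and 8 counts with piericidin against 6 and 4, and in untransduced myotubes 9, 4 and 9 against 1, 3 and 2. In the fit without the count filter the Perm1 changes with piericidin were 2.71 in LbNOX myotubes (edgeR adjusted p = 0.0281), 0.58 in GFP myotubes (edgeR adjusted p = 1) and 2.1 in untransduced myotubes (edgeR adjusted p = 0.504), and the LbNOX and GFP myotubes did not pass a test of their difference (edgeR adjusted p = 1). The piericidin response of Perm1 in untransduced myotubes also passed against that in Luc myoblasts in that setting (edgeR adjusted p = 0.0395), where it had 3, 2 and 5 counts under DMSO and 1, 0 and 0 with piericidin, so that no fold is given.

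Condition means of log2 CPM were centred on their own experiment, and a span was then taken over all 35 conditions together. It is thus not the span inside any 1 experiment. The span was widest for Ppargc1a (2.04), followed by Pprc1 (1.74), Ppargc1b (1.65), Perm1 (1.47), Esrra (1.2), Nrf1 (0.97), Tfam (0.86), Tfb2m (0.86), Polrmt (0.78) and Gabpa (0.6). For the members with few counts, counting error adds to the span.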
